A study of Mus musculus with 32 samples.

Results

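The 10 genes described here are targets, feedback regulators and core components of the Wnt signalling pathway: Axin2, Sp5, Nkd1, Rnf43, Znrf3, Lgr4, Ctnnb1, Tcf7, Tcf7l2 and Myc. They were chosen by symbol, and 10 of 10 were found among the 50686 Ensembl genes of the count table. Messenger RNA was sequenced from crypt cells of the mouse intestine, sorted by a green fluorescent reporter at the Lgr5 locus into stem cells (reporter high) and progenitors (reporter low). The gate took EpCAM-positive cells with low or no CD24 that were negative for CD31, Ter119, CD45 and the dead-cell dye 7AAD. The mice, of the C57BL6 strain, carried Villin-CreER, a tamoxifen-dependent Cre recombinase active throughout the intestinal epithelium, and Lgr5-GFP-IRES-CreER, the sorting reporter, which also makes CreER in Lgr5-positive cells. Wild-type mice had these alleles alone, and Cpt1a-deficient mice had Cpt1afl/fl in addition, so that both drivers and the altered Lgr5 allele were shared by every group. Cpt1a encodes the enzyme that brings long-chain fatty acids into mitochondria. Mice of each genotype ate either the high-fat diet or its control (High Fat Control in the labels), which gives 4 stem cell and 4 progenitor groups with 4 libraries each, 32 in all. The labels give 2 female and 2 male samples per group, but the columns of the tables carry neither sex nor a replicate number, and the libraries of a group are called a to d.

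Wnt proteins keep intestinal crypts dividing. When a Wnt ligand binds a Frizzled receptor and its Lrp co-receptor, β-catenin (Ctnnb1) escapes the destruction complex, enters the nucleus and switches on genes through DNA-bound TCF proteins (Tcf7, Tcf7l2). Among those genes are brakes on the pathway itself: Axin2 rebuilds the destruction complex, Nkd1 acts on Dishevelled, Rnf43 and Znrf3 remove Frizzled receptors from the cell surface, and Sp5 is a transcription factor that dampens other targets. R-spondin proteins bound to Lgr4 or Lgr5 hold Rnf43 and Znrf3 back, and Myc drives growth and division.

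Promoter sequences are shown for 2 direct targets with contrasting letters, Sp5 and Axin2. Sp5 (ENSMUSG00000075304) lies on the plus strand at chr2:70474923-70477729 and Axin2 (ENSMUSG00000000142) on the plus strand at chr11:108920349-108950783 (GRCm38, GENCODE M21). The windows below are the 250 bases before the RefSeq gene start (build GRCm38.p6, plus strand), chr2:70474673-70474922 for Sp5 and chr11:108920099-108920348 for Axin2, written 5′ to 3′. Capitals mark matches to the TCF motif, CTTTG followed by 2 letters that are each A or T, searched on both strands.
Sp5: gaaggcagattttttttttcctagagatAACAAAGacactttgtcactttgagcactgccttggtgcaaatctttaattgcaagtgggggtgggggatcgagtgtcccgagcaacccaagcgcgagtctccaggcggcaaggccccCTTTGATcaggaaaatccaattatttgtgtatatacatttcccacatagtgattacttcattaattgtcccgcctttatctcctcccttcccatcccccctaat
Axin2: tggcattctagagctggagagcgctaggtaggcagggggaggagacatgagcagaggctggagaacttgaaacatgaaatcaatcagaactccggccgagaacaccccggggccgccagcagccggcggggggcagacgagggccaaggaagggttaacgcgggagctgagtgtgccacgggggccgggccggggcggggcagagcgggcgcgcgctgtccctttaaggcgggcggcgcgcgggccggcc
The Sp5 window held 2 matches. CTTTGTT, read on the minus strand, is seen above as AACAAAG, whose first letter as printed lies 222 bases before the start. CTTTGAT on the plus strand began 104 bases before it. The Axin2 window held 0 matches, which says only that these letters are not in these 250 bases. RefSeq gave 12 windows for 8 of the 10 genes, and the only other match was CTTTGTT on the plus strand, 14 bases before the second Tcf7l2 start (chr19:55895071-55895320). Over all 32851 windows of that length, 14.8% held at least 1 match and 1.43% held 2 or more, and a match is a description of letters, not evidence of binding.

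The remaining genes lie, in GRCm38, at chr11:87662722-87735539 (Rnf43, plus strand), chr11:5276324-5444847 (Znrf3, minus), chr8:88521354-88594884 (Nkd1, plus), chr2:109917647-110014257 (Lgr4, plus), chr9:120929216-120960507 (Ctnnb1, plus), chr11:52252371-52283014 (Tcf7, minus), chr19:55741820-55933654 (Tcf7l2, plus) and chr15:61985391-61990374 (Myc, plus). All 10 are protein-coding, and values are sums over whole genes.

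The library totals were between 3307711 and 7337425 estimated counts, and all 10 genes passed the filter on low counts in each of the 3 models. Values are TMM-scaled CPM, counts relative to library size, unless TPM, which is also scaled by gene length, is named. Cpt1a, the targeted gene, was at 18.8 to 30.6 CPM in the 16 deficient libraries and 118.8 to 346.6 CPM in the 16 wild-type ones. The sort was visible in Lgr5, at 282.3 to 515.2 CPM in stem cells and 11.9 to 85.7 CPM in progenitors. The epithelial gene Epcam was at 1904 to 2762 CPM in all libraries. The summed markers of goblet cells reached 9459 to 26700 CPM in progenitors and 254 to 868 CPM in stem cells, and those of Paneth cells 3918 to 26870 against 183 to 2794 CPM. In the same order, enteroendocrine markers were at 692.5 to 1690 against 3.90 to 72.7 CPM. Enterocyte markers were at 821 to 3169 against 85.7 to 782 CPM, and tuft markers at 18.1 to 49.5 against 4.38 to 14.9 CPM. Proliferation markers overlapped, at 1515 to 2137 and 1873 to 2686 CPM. In these bulk samples, fewer cells of a type and less RNA per cell cannot be told apart. The labels give both sexes in each group, hence more than 1 animal, but do not say whether each library of a group came from its own animal. The p-values measure the spread between these libraries. Stem cell and progenitor samples share replicate numbers in the labels, so both may come from the same animals, which is not known here. The tests between the populations treated all libraries as independent.

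Stem cells held more RNA than progenitors for 9 of the 10 genes, and Tcf7l2 did not pass the test. The increase was largest for the feedback genes Sp5, Nkd1, Rnf43 and Axin2, at 3.09-fold to 4.92-fold, followed by Tcf7 at 2.24-fold, Znrf3 at 1.90-fold and Myc at 1.74-fold. It was smallest for the receptor gene Lgr4, at 1.26-fold, and for Ctnnb1, at 1.17-fold. The test was edgeR's quasi-likelihood test over all 13088 tested genes with Benjamini-Hochberg adjustment, 16 libraries against 16. In it 63.5% of all genes were called, 32.5% higher and 31% lower in stem cells, and the median log2 fold change was 1.04 for the 10 genes against 0.02 for all. For 6 of the 10 (Axin2, Sp5, Rnf43, Nkd1, Tcf7 and Myc) the lowest stem cell library lay above the highest progenitor library, which held for 3.25% of all genes. Lgr5 is itself a Wnt target and its reporter set the gate, so the populations were separated on a gene of the same pathway.

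**Figure D1:**
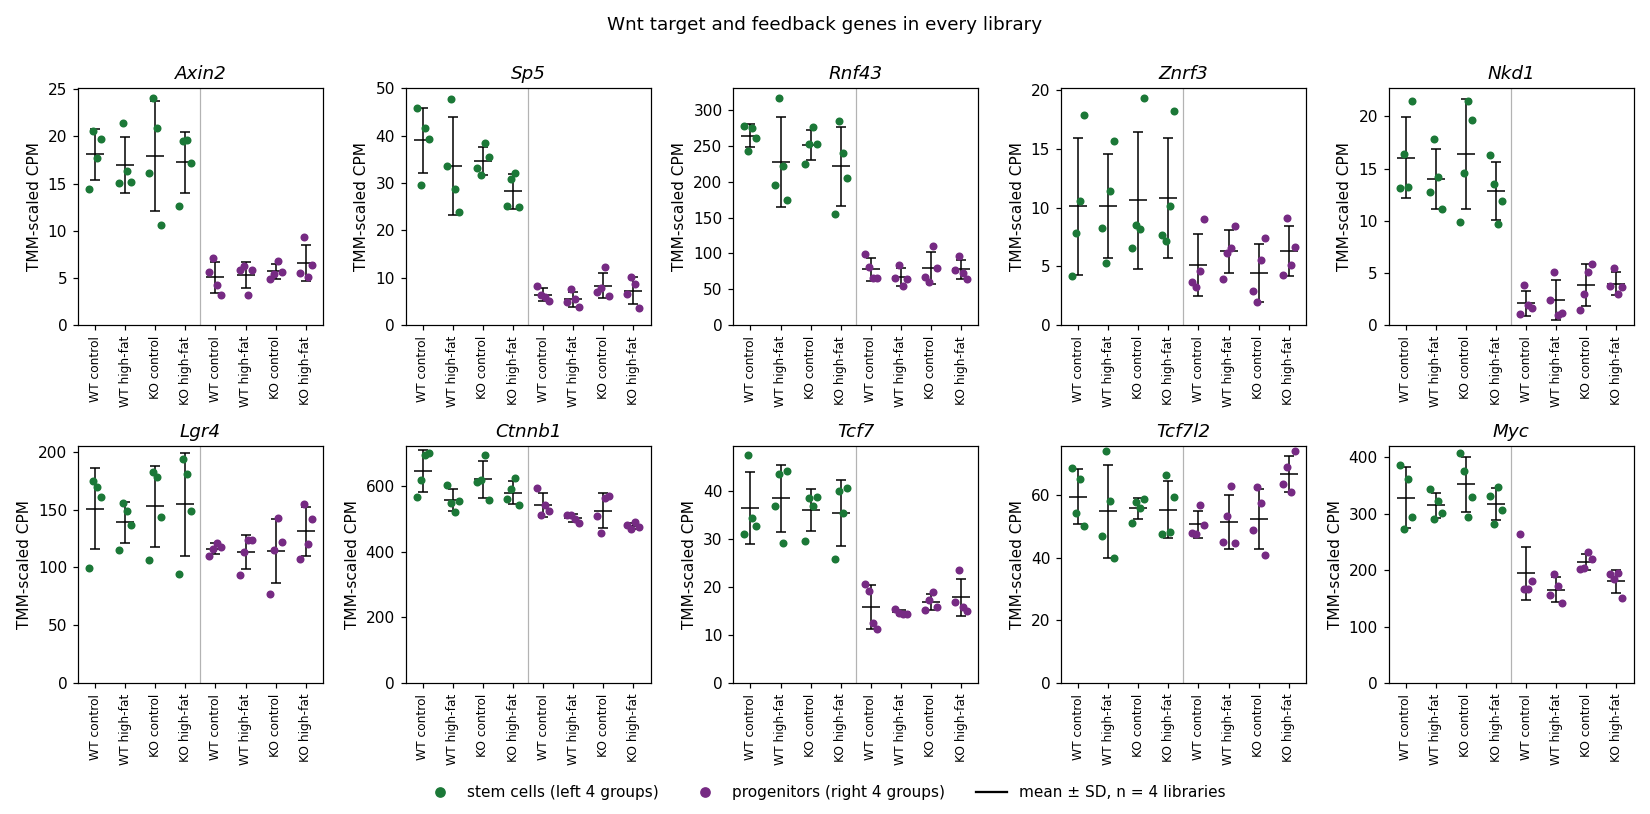
Level of each of the 10 genes in the 32 libraries, in TMM-scaled CPM on a linear axis, by population, genotype and diet (4 libraries per group, each point 1 library). For Axin2, Sp5, Rnf43, Nkd1, Tcf7 and Myc the 16 stem cell libraries all lie above the 16 progenitor libraries, and for Tcf7l2 the populations overlap.

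Sp5 was at 24.0 CPM in the lowest stem cell library, 32.6 in the median and 47.8 in the highest, and at 3.64, 6.49 and 12.2 CPM in the same order in progenitors. The 2 ranges were well apart, and the log2 fold change of 2.30 ± 0.12 (SE, adjusted p = 3.51e-16) was the highest of the 10. Axin2, a gene often read as a reporter of Wnt activity, was at 10.6, 17.4 and 24.1 CPM (lowest, median, highest) in stem cells and at 3.21, 5.66 and 9.30 CPM in progenitors. The ranges came close without overlapping, with a log2 fold change of 1.63 ± 0.12 (adjusted p = 8.16e-13). Nkd1 was at 9.72, 13.9 and 21.5 CPM in stem cells and 0.944, 2.99 and 5.84 CPM in progenitors, where single libraries held only 5 to 34 counts. Its log2 fold change was 2.29 ± 0.19 (adjusted p = 1.36e-11), with the widest relative spread of the 10 among progenitor libraries, a coefficient of variation of 53.9%.

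The 2 receptor-removing ubiquitin ligases differed in size of change and in spread. Rnf43 was at 154.8, 247.7 and 317.2 CPM (lowest, median, highest) in stem cells and at 54.0, 69.7 and 110.5 CPM in progenitors, a log2 fold change of 1.67 ± 0.10 (adjusted p = 1.38e-14) with no overlap. Znrf3, its paralog, was at 4.20, 8.41 and 19.3 CPM in stem cells and 1.94, 5.37 and 9.13 CPM in progenitors. Only 7 of its 16 stem cell libraries exceeded every progenitor library, and the log2 fold change was 0.93 ± 0.23 (adjusted p = 0.000801). The difference between the paralogs was not tested.

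Lgr4, a receptor for R-spondins, was at 94.0, 152.4 and 194.0 CPM (lowest, median, highest) in stem cells and 77.1, 119.2 and 155.0 CPM in progenitors. The ranges overlapped widely, and the log2 fold change was 0.33 ± 0.10 (adjusted p = 0.0055). Its paralog Lgr5, the gate gene, was 3.57 ± 0.21 higher on the same scale, a difference that the sort fixed in advance.

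Ctnnb1 (β-catenin) was the most abundant of the 10 in mean TPM in both populations and the least variable, with a median coefficient of variation of 6.4% within groups. It was at 521.2, 595.9 and 698.3 CPM in stem cells and 456.4, 508.7 and 593.0 CPM in progenitors, and its small log2 fold change of 0.23 ± 0.04 passed the test (adjusted p = 8.44e-06). The 2 TCF genes went apart. Tcf7 was at 25.7, 36.9 and 47.5 CPM in stem cells and 11.3, 15.6 and 23.4 CPM in progenitors (log2 fold change 1.16 ± 0.09, adjusted p = 1.93e-12). Tcf7l2 was at 39.98, 56.7 and 73.9 CPM in stem cells and 40.9, 55.0 and 73.9 CPM in progenitors, so the ranges coincided. Its log2 fold change was 0.04 ± 0.08 (adjusted p = 0.678), and the 95% confidence interval of -0.12 to 0.19 gives what the TMM scale allows. On the log2(TPM + 1) scale limma gave Tcf7l2 a difference of 0.28 (adjusted p = 0.00774), but there the median of all genes moved to 0.27, and the split of called genes went from 4259 higher and 4056 lower to 7617 higher and 1981 lower. Relative to that median Tcf7l2 differed by 0.01. Myc, a growth regulator and intestinal Wnt target, was at 272.4, 326.1 and 406.5 CPM in stem cells and 141.1, 187.9 and 264.2 CPM in progenitors, a log2 fold change of 0.80 ± 0.07 (adjusted p = 6.56e-12).

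**Figure D2:**
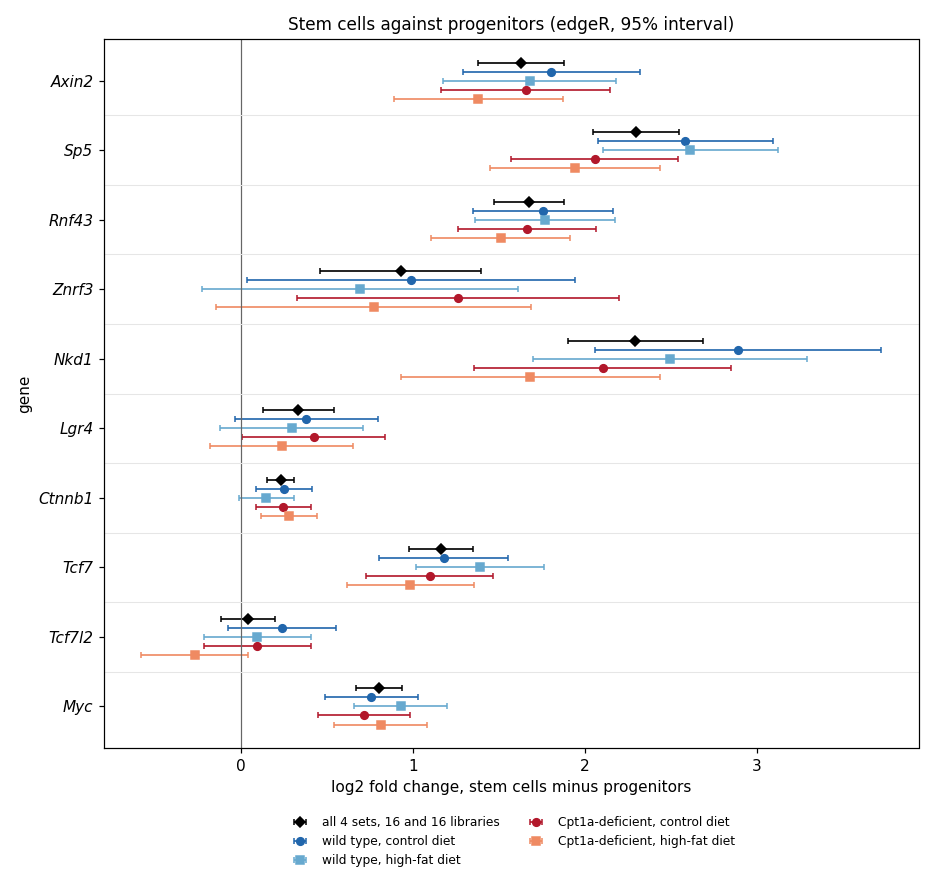
Log2 fold change of stem cells over progenitors for the 10 genes, with 95% confidence intervals, over all 32 libraries and within each combination of genotype and diet (4 libraries against 4). Sp5 and Nkd1 lie highest, and the intervals of Tcf7l2 include 0 throughout.

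Per gene length, the order of the 10 genes differed little between the populations. In mean TPM, stem cells had 430.6 of Ctnnb1, 296.3 of Myc, 108.5 of Rnf43, 50.6 of Lgr4, 34.3 of Tcf7l2, 27.7 of Sp5, 27.3 of Tcf7, 11.1 of Nkd1, 9.35 of Axin2 and 3.72 of Znrf3. Progenitors had 296.3 of Ctnnb1, 140.5 of Myc, 32.9 of Lgr4, 29.3 of Rnf43, 28.1 of Tcf7l2, 9.84 of Tcf7, 4.57 of Sp5, 2.79 of Axin2, 2.004 of Nkd1 and 1.54 of Znrf3. Rnf43, behind Ctnnb1 and Myc in stem cells, stood near Lgr4 and Tcf7l2 in progenitors. Within each gene, the 4 stem cell groups ranked above the 4 progenitor groups in mean TPM for 9 genes, Tcf7l2 being the exception. For Axin2, Sp5, Rnf43, Nkd1, Ctnnb1, Tcf7 and Myc, the mean ± SD ranges overlapped at 6 of the 7 steps between neighbouring groups, the step between populations being the exception, and for Znrf3, Lgr4 and Tcf7l2 they overlapped at all 7. On this scale the median of all genes was itself 0.27 (log2) higher in stem cells, as given above. In CPM the step for Ctnnb1 was not separate, with 556.3 ± 33.2 (SD) in stem cells of wild-type mice on the high-fat diet and 541.9 ± 36.2 in wild-type progenitors on the control diet (n = 4 each).

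The population difference was then read within each genotype and diet. The same 6 genes with separate ranges (Axin2, Sp5, Rnf43, Nkd1, Tcf7, Myc) were higher in stem cells in all 4 combinations. Wild-type mice on the control diet had 7 of 10 genes higher (19.3% of all genes called higher, 41.4% in either direction), with Ctnnb1 as the seventh (0.25 ± 0.08, adjusted p = 0.0118). Cpt1a-deficient mice on the control diet had 8 of 10 (17.3% called higher, 36.8% in either direction), adding Ctnnb1 (0.24 ± 0.08, adjusted p = 0.0154) and Znrf3 (1.26 ± 0.46, adjusted p = 0.0311). Wild-type mice on the high-fat diet had 6 of 10 (17.3% and 37.3%), and Cpt1a-deficient mice on the high-fat diet had 7 of 10 (14.1% and 31.4%), again with Ctnnb1 (0.28 ± 0.08, adjusted p = 0.00757). Lgr4 passed in none of the 4 by edgeR, where its log2 fold change was 0.24 to 0.42 with a SE of about 0.20. With the library number sets described further on as a block, the counts were 9, 9, 8 and 8 of 10 in the same order, since Lgr4 passed in 3 combinations and Znrf3 in the 3 where it had not. Among all 13088 genes the block raised the number called higher too, from 2532, 2266, 2262 and 1840 to 2823, 2550, 2569 and 2077. Tcf7l2 ranged from 0.24 ± 0.15 in wild-type mice on the control diet to -0.27 ± 0.15 in Cpt1a-deficient mice on the high-fat diet, neither past the threshold (adjusted p = 0.225 and 0.184).

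Several of these calls within single combinations rested on 1 library. In deficient mice on the control diet, Znrf3 fell to 0.81 (adjusted p = 0.192) without stem cell library d and to adjusted p = 0.101 and 0.111 without progenitor libraries a and b, and Ctnnb1 to adjusted p = 0.0862 without stem cell library c and 0.0889 without progenitor library b. There Lgr4 passed without stem cell library a (adjusted p = 0.0345) or progenitor library c (0.048). In wild-type mice on the control diet, Ctnnb1 missed the threshold without stem cell library c or d (adjusted p = 0.0508 and 0.0514), Lgr4 passed without stem cell library a (0.0352), and Znrf3 passed without stem cell library a (0.0354) or progenitor library d (0.0334).

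Of the other Wnt genes, 110 were listed by role and 69 were tested between the populations. In stem cells 34 were higher, 14 were lower and 21 did not pass, beside 32.5% higher and 31% lower among all genes, and the median log2 fold change was 0.25 against 0.02 for all genes. The higher genes include Lgr5, whose reporter set the gate. The counts by role below stand beside the same shares of all genes. The other 41 were too low to test, and the highest library of any of them, for Fzd3, reached 1.59 CPM. These are epithelial cells, and many Wnt ligands are made by the stroma beneath them, whose markers summed to at most 7.93 CPM. The 41 genes also include receptors, inhibitors and other roles, and the reason for their low levels was not tested.

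Ligand and secretion genes were tested for 5 of 25. Wls, which carries Wnt proteins to the cell surface (log2 fold change 0.37 ± 0.04, adjusted p = 1.5e-08), and Wnt5b (1.61 ± 0.19) were higher in stem cells. Wnt3, a ligand made by Paneth cells, was lower in stem cells (-1.33 ± 0.16, adjusted p = 1.52e-08), at 6.16 against 15.5 CPM. The Paneth marker sum was also lower there, as given above, and its part in the Wnt3 difference was not tested.

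Of 13 receptor genes tested, 6 were higher and 3 lower. The higher ones include Lgr5, the gate gene, whose difference the sort fixed in advance. Beside Lgr5, the Frizzled genes Fzd7 (1.12 ± 0.09) and Fzd6 (0.98 ± 0.11) were higher in stem cells, and Fzd5 (-0.84 ± 0.09), Fzd4 (-1.10 ± 0.14) and Fzd9 (-1.15 ± 0.23) were lower. Extracellular inhibitors were tested for 4 of 16, with 2 higher and 1 lower: Sfrp5, a secreted binder of Wnt proteins (1.49 ± 0.16), and Apcdd1, a membrane inhibitor (2.22 ± 0.24), were higher, and Kremen2, a Dickkopf receptor, was lower (-0.95 ± 0.24). Apcdd1 did not pass the filter on low counts in progenitors alone, so it entered this test through its level in stem cells. In the cytoplasm, 8 of 17 tested genes were higher and 1 lower, led by the kinase genes Csnk1e (0.83 ± 0.07) and Csnk1d (0.22 ± 0.03) and Dvl2, a Dishevelled gene (0.71 ± 0.08). The lower one was Ctnnbip1 (-0.59 ± 0.07), whose product keeps β-catenin from TCF.

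In the nucleus, 5 of 11 tested genes were higher and 3 lower. Lef1, another member of the TCF family, was at 3.65 CPM in stem cells and 0.342 in progenitors (3.31 ± 0.28, adjusted p = 1.45e-11), while Tcf7l1, of the same family, was at 0.393 and 1.40 CPM (-1.83 ± 0.30, adjusted p = 4.14e-06). Of the TCF family, Lef1 and Tcf7 were thus higher in stem cells, Tcf7l1 was lower, and Tcf7l2 did not pass. The co-repressor gene Tle3 (1.23 ± 0.18) and the β-catenin co-activator gene Bcl9l (0.98 ± 0.12) were higher, and the co-repressor gene Tle2 (-1.48 ± 0.28) and Cby1 (-0.19 ± 0.06), a β-catenin antagonist, were lower. Lef1 did not pass the filter on low counts in progenitors alone, nor did Tcf7l1 and Tle2 in stem cells alone. These genes entered the test through the population where they were higher, so their directions are not independent support for a difference within the TCF family.

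Among 19 further intestinal targets tested, 11 were higher and 5 lower. Tnfrsf19, a stem cell marker (2.93 ± 0.15), the transcription factor gene Jun (2.54 ± 0.15) and Cdca7 (1.21 ± 0.07) were among the higher ones. Mmp7, a protease gene of Paneth cells (-2.77 ± 0.18), Prox1, a transcription factor gene (-1.53 ± 0.22), and Bambi, a TGF-β pseudoreceptor gene (-1.23 ± 0.12), were lower.

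The diet and genotype comparisons asked whether these genes differed with food or with loss of Cpt1a within each population. By edgeR's quasi-likelihood test 0 of the 10 genes passed in any of the 8 comparisons of 4 libraries with 4, and DESeq2 and limma on log2(TPM + 1) also called 0. The shares of all genes called were small. In stem cells they were 0.25% for diet in wild type, 0.0645% for diet in deficient mice, 0.443% for genotype on the high-fat diet and 0.242% for genotype on the control diet. In progenitors the same comparisons called 0.0883%, 0.313%, 0.706% and 0.257% of genes. Of the other Wnt genes, 66 were tested in each population and edgeR called 0 in any of these comparisons, with 2 to 13 at an unadjusted p under 0.05. Except for diet in wild-type stem cells, no background among all genes at that threshold is given for such counts, here or below. A gene that does not pass is not shown to be unchanged, and the intervals below give what the data allow.

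In wild-type stem cells, 1 of 10 genes had an unadjusted p under 0.05 for diet, Ctnnb1. Its 4 libraries (a to d) were at 565.0, 618.8, 694.9 and 698.3 CPM on the control diet and at 601.1, 548.5, 521.2 and 554.5 CPM on the high-fat diet. Library a of each diet fell within the range of the other diet, so the groups overlapped. The log2 fold change was -0.21 ± 0.09 (95% confidence interval -0.40 to -0.02) with adjusted p = 0.385. Sp5 was at 45.8, 29.6, 41.6 and 39.4 CPM on the control diet and 33.6, 47.8, 28.8 and 24.0 CPM on the high-fat diet, with overlap and no call. Of the 10 genes only Tcf7 had a positive estimate, as did 51.1% of all genes, and the median was -0.12 against 0.01 for all genes. In these same 8 libraries the summed goblet markers were at 254 to 510 CPM on the control diet and 754 to 868 CPM on the high-fat diet, the enterocyte markers at 85.7 to 293 and 335 to 782 CPM, and the crypt base markers at 13950 to 16800 and 12950 to 13950 CPM. Olfm4 made up most of the crypt base sum, at a mean of 11960 CPM on the control and 9936 CPM on the high-fat diet. Tnfrsf19 (136.5 and 86.5 CPM), Lgr5, Smoc2 and Rgmb were also lower on the high-fat diet. Cdca7 was level (911 and 914 CPM), and Ascl2 was higher (121.5 and 180 CPM). No crypt base marker passed the edgeR test for diet. In that test the goblet marker Klk1 (0.96 ± 0.19, adjusted p = 0.0409) and the Paneth marker Habp2 (1.11 ± 0.19, adjusted p = 0.0312) were higher on the high-fat diet. No other marker tested passed. The part of these markers in the values of the 10 genes was not tested.

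Among other Wnt genes in wild-type stem cells, 13 of 66 had an unadjusted p under 0.05 for diet and 0 passed the adjustment. In that edgeR test of 12409 genes, an unadjusted p of 0.0466 stood at rank 1366 and one of 0.0531 at rank 1511. Cpt1a-deficient stem cells had 0 of 10 genes at an unadjusted p under 0.05 for diet, with estimates from -0.33 ± 0.24 for Nkd1 to 0.03 ± 0.23 for Lgr4. The genotype effect in stem cells also had 0 of 10 on either diet. It ran from -0.26 ± 0.18 (Sp5) to 0.15 ± 0.23 (Lgr4) on the high-fat diet and from -0.18 ± 0.18 (Sp5) to 0.09 ± 0.12 (Myc) on the control diet. For Axin2, the intervals for genotype were -0.44 to 0.47 and -0.48 to 0.43 on the high-fat and the control diet. For Myc they were -0.24 to 0.25 and -0.16 to 0.33.

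**Figure D3:**
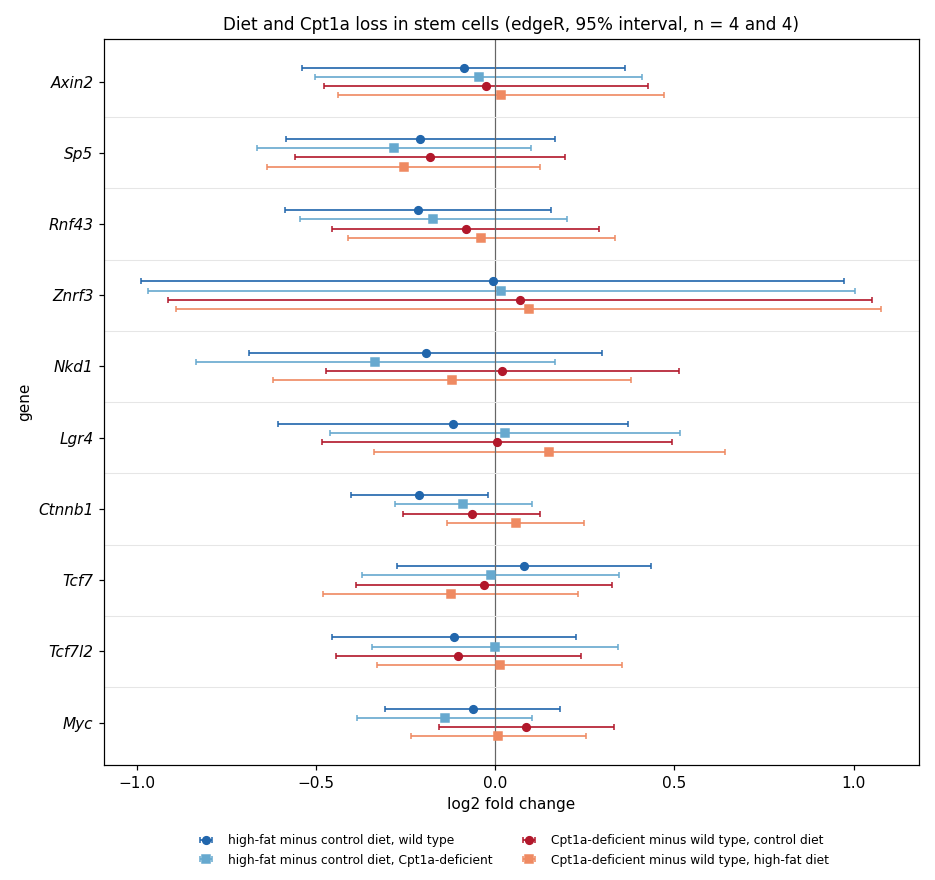
Log2 fold changes for diet (high-fat over control) and genotype (Cpt1a-deficient over wild type) in stem cells for the 10 genes, with 95% confidence intervals (4 libraries against 4). All but 1 of the intervals include 0, the exception being Ctnnb1 for diet in wild type, whose adjusted p was 0.385.

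In progenitors Tcf7l2 stood out by its unadjusted p. Its libraries a to d were at 63.5, 68.9, 60.9 and 73.9 CPM in deficient mice on the high-fat diet, 48.8, 62.4, 57.3 and 40.9 CPM in deficient mice on the control diet, and 44.9, 53.2, 62.8 and 44.5 CPM in wild-type mice on the high-fat diet. The first group was highest on average, and 1 library of each other group reached into its range. The log2 fold change was 0.35 ± 0.13 for diet in deficient mice (adjusted p = 0.369, edgeR) and 0.39 ± 0.13 for genotype on the high-fat diet (adjusted p = 0.234, edgeR). Both comparisons use the same 4 deficient high-fat libraries. The summed Paneth markers were at 14790 to 26870 CPM in these libraries, 3918 to 13260 CPM in deficient mice on the control diet and 15040 to 25960 CPM in wild-type mice on the high-fat diet. The Paneth sums moved with diet in deficient progenitors, without overlap. In wild-type progenitors on the control diet they were at 6136 to 16260 CPM. There too the mean was higher on the high-fat diet (9446 against 18930 CPM), with overlap. The part of these markers in the Tcf7l2 and Myc values was not tested.

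Myc was at 201.6, 204.2, 232.8 and 219.1 CPM (libraries a to d) in deficient progenitors on the control diet and at 192.4, 183.5, 195.0 and 150.4 CPM on the high-fat diet. The groups did not overlap, as for 5.71% of all genes in that comparison, and the log2 fold change was -0.26 ± 0.14 (adjusted p = 0.554). The Paneth marker sums of these 8 libraries, given above, did not overlap either. In wild-type progenitors Myc was at 264.2, 166.0, 165.8 and 180.9 CPM on the control diet and 156.1, 192.2, 171.8 and 141.1 CPM on the high-fat diet, with overlap and a log2 fold change of -0.24 ± 0.14 (adjusted p = 0.789).

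Nkd1 in progenitors was at 1.06, 3.82, 1.96 and 1.62 CPM in wild type and 1.47, 2.998, 5.05 and 5.84 CPM in deficient mice on the control diet. On the high-fat diet it was at 2.42, 5.06, 0.944 and 1.17 CPM in wild type and 3.78, 5.51, 2.98 and 3.64 CPM in deficient mice. The groups overlapped on both diets, and the log2 fold changes of 0.84 ± 0.51 and 0.71 ± 0.50 had intervals that include 0. For genotype on the high-fat diet, 9 of the 10 genes had positive estimates in progenitors, with a median of 0.26 against 0.00 for all genes, of which 51.1% were positive, and Ctnnb1 (-0.06 ± 0.08) was the exception. On the control diet 7 of 10 were positive (52% of all genes), with a median of 0.07, and 0 had an unadjusted p under 0.05.

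**Figure D4:**
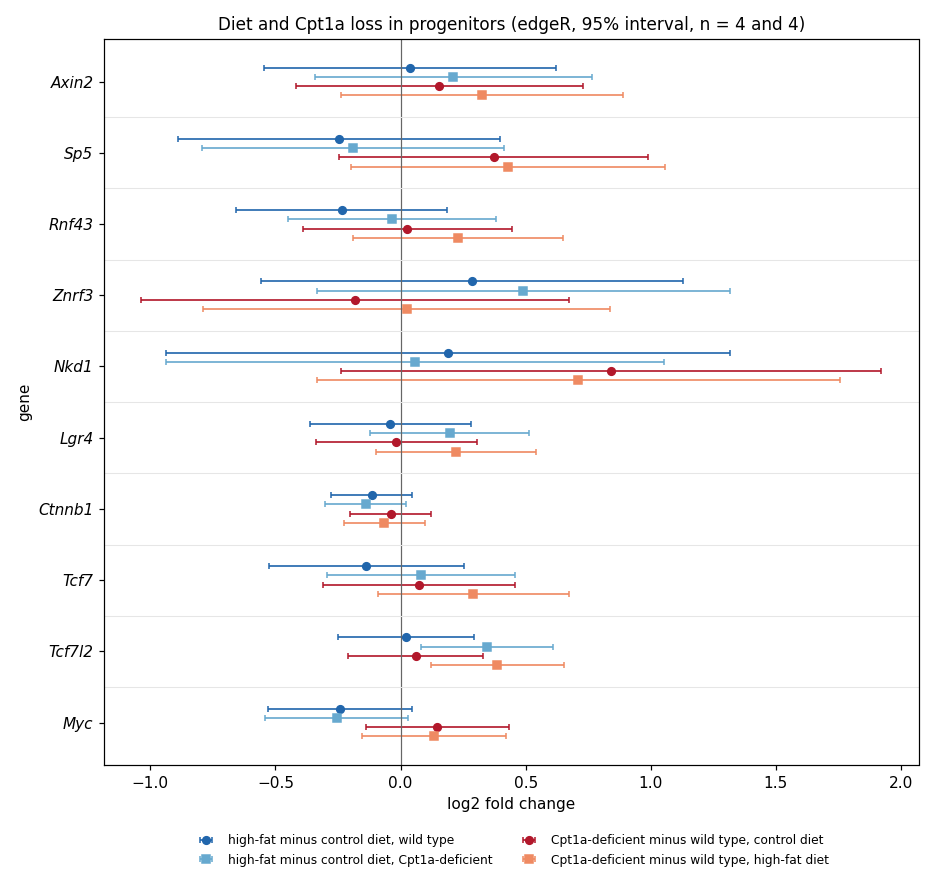
The same diet and genotype log2 fold changes in progenitors, with 95% confidence intervals (4 libraries against 4). Nkd1 and Znrf3 have the widest intervals, and Tcf7l2 is above 0 for diet in deficient mice and for genotype on the high-fat diet at adjusted p = 0.369 and 0.234.

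Whether the diet or genotype effects differed between the populations was tested as an interaction over all 32 libraries. By edgeR, 0 of the 10 genes and 0% of all genes passed for diet by population, genotype by population, or the joint test that the population difference varied with genotype and diet. DESeq2 called 1 gene of all for genotype by population and 3 for the joint test, none of them among the 10. Unadjusted, 2 of the 10 had p under 0.05 for genotype by population: Sp5 (-0.60 ± 0.24, adjusted p = 1, edgeR) and Nkd1 (-0.80 ± 0.39, adjusted p = 1, edgeR). For diet by genotype within stem cells and within progenitors, 0 of 10 passed and 0 had an unadjusted p under 0.05, and 0% of all genes passed.

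Some of the spread within groups was shared between groups. The column names carry library numbers, and libraries with the same letter came from the same set of 8 consecutive numbers, 1 library from each group. Znrf3 was highest in library d in 7 of the 8 groups, among them all 4 stem cell groups, where library d was at 15.7 to 19.3 CPM and the other 12 libraries at 4.20 to 11.4 CPM. Lgr4 was lowest in library a in 8 of 8 groups, at 94.0 to 115.1 CPM in stem cells against 136.7 to 194.0 CPM in libraries b to d. These were the most repeated patterns among the 10 genes. The share of all genes with such a pattern was not counted. What the number sets stand for is not given in the sources used here. Within each of the 4 sets, stem cells exceeded progenitors for Znrf3 (log2 difference 0.68 to 1.16) and for Lgr4 (0.11 to 0.51), and the other called genes were likewise higher in 4 of 4 sets. Tcf7l2 differed by -0.07 to 0.12.

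With the number sets as a block, chosen after the data were seen, Lgr4 passed in wild-type mice on the control diet (0.34, adjusted p = 0.016), deficient mice on the control diet (0.42, adjusted p = 0.00346) and wild-type mice on the high-fat diet (0.29, adjusted p = 0.0365). Znrf3 then passed in the 3 combinations where it had not (adjusted p = 0.00585, 0.0438 and 0.0485). No diet or genotype effect on the 10 genes passed with the block.

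In some libraries most of the 10 genes deviated from the group mean in 1 direction. At least 8 of 10 were above it in 3 of 16 stem cell and 3 of 16 progenitor libraries, and at most 2 of 10 in 3 and 2 libraries. The largest counts were in progenitors. In deficient mice on the control diet, library a was below its group mean for 10 of 10 genes and library c above it for 10 of 10. These libraries had crypt base marker sums of 2589 and 6260 CPM and Lgr5 at 11.9 and 85.7 CPM. Library b was above its group mean for 9 of 10 genes in wild-type and in deficient mice on the high-fat diet, with Lgr5 at 43.4 and 67.2 CPM, the highest of each group. Some deviations were small, such as -0.041 in log2 CPM for Ctnnb1 in library a of deficient progenitors on the control diet. The share of all genes deviating in the same direction in these libraries was not counted. The part of the sort in these deviations was not tested.

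**Figure D5:**
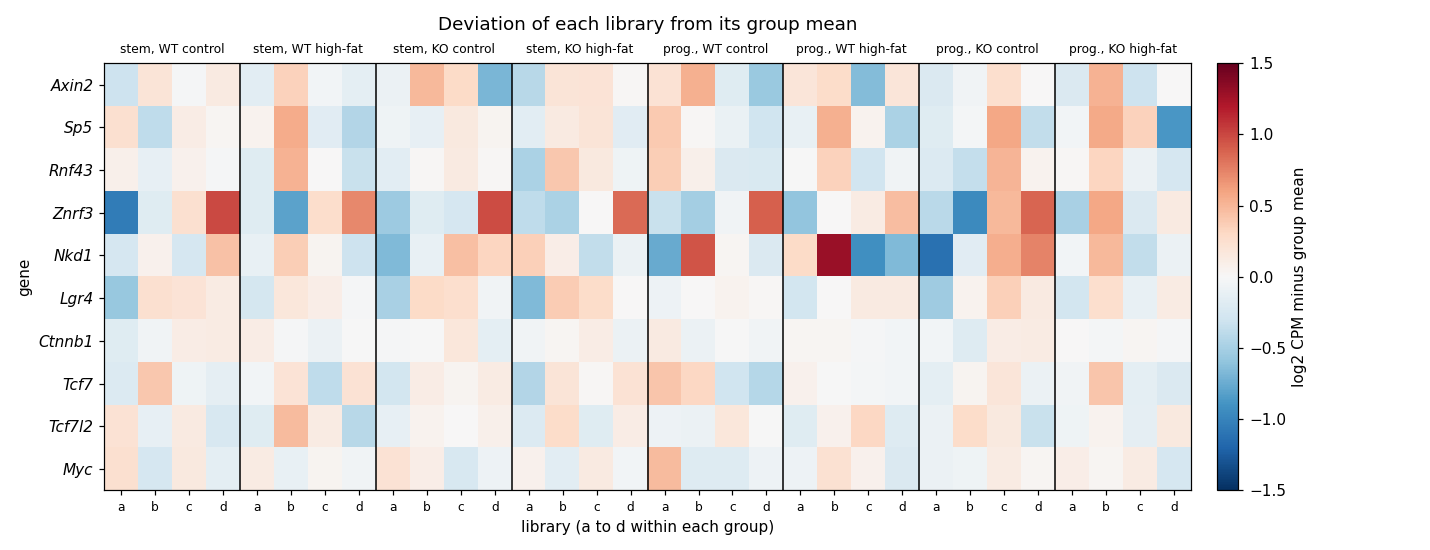
Deviation of each library from its group mean, in log2 CPM, for the 10 genes across the 32 libraries. Library d is the highest for Znrf3 in 7 of 8 groups and library a the lowest for Lgr4 in 8 of 8, and in deficient progenitors on the control diet library a is low and library c high for all 10 genes.

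Over the 8 group means of log2 CPM, the genes outside the 10 whose pattern was most like that of Axin2 were Dtx4, Nav1, St6galnac2, Gm830 and Phldb2, with Pearson r from 0.9979 to 0.9994. Among the 10, Tcf7 was nearest to Axin2 (r = 0.9959), then Rnf43 (0.9892), Nkd1 (0.9886) and Sp5 (0.9882), and Tcf7l2 was farthest (0.2355). For Myc the nearest were Xndc1, Llgl1, Snhg20, Fbxo22 and Tti1, with r from 0.9927 to 0.9985, and Sp5 was the nearest of the 10 (0.986). These values describe likeness over 8 points that fall into 2 populations, and the populations differ for most of these genes.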

How the data were processed

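PolyA RNA of the 32 sorted samples was sequenced. Per the submitters' processing notes, RSEM 1.3.0, STAR 2.5.3a and SAMtools 1.3 were among the tools and mm10 was the build. The notes give no roles, and the annotation and strand setting are not given in the sources used here. The authors deposited expected counts per Ensembl gene, rounded to whole numbers, and a second table with log2 values of TPM after adding 1. The 0.0677% of counts in genes lacking a symbol were kept.

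Counts were tested in edgeR 4.0.16 (R 4.3.3) with TMM scaling, filterByExpr (minimum count 10) and robust quasi-likelihood fits, and p-values were adjusted by Benjamini-Hochberg, with a threshold of 0.05, over all genes that passed the filter. All 32 libraries entered 1 fit for the population contrasts and interactions (13088 genes). Stem cells (12409 genes) and progenitors (12460 genes) were fitted apart, 16 libraries each, for diet and genotype. Standard errors were derived by dividing the size of a log2 fold change by the root of its F statistic. DESeq2 1.42.0, limma 3.58.1 on the log2 TPM values, upper-quartile scaling, no filter, left-out libraries and only the 8 libraries compared were the alternatives. The scripts were tested on simulated data.

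The 10 genes, the lists and the comparisons were chosen with earlier results of these data known. The 10 are always named. Of the other Wnt genes, up to 3 per role and direction with the smallest adjusted p under 0.05 between the populations are named, and any called elsewhere. For likeness, the 5 genes nearest to Axin2 and to Myc are named. Fzd3 was named after its values were seen. Lgr5, Epcam and Cpt1a served as checks of sort and genotype.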

Additional observations from a re-analysis of the deposited data

Results flagged for a closer look

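In 3 of the 80 groups of 4 libraries (10 genes in 8 groups), 1 library stood apart from the others by Dixon's ratio of the gap to the range, at its 95% critical value for 4 samples. Chance alone flags about 1 in 20 such groups. Axin2 in wild-type progenitors on the high-fat diet was at 3.209 CPM in library c, and the other 3 libraries were at 5.86 to 6.28 CPM. Znrf3 in Cpt1a-deficient stem cells on the control diet was at 19.3 CPM in library d, and the others were at 6.59 to 8.55 CPM. Myc in wild-type progenitors on the control diet was at 264.2 CPM in library a, and the others were at 166 to 181 CPM.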

How the results depend on the processing

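No paired analysis was possible because the columns carry none of the replicate numbers of the labels, and the planned gender term was not run because they carry no gender. The Xist level as a covariate and the library number sets as a block were added after the data were seen. Of the sex-linked genes Xist and Ddx3y, 16 libraries had more Xist, 2 in each group, and 16 had more Ddx3y. With the Xist covariate, Znrf3 passed between the populations in wild-type mice on the control diet (1.01, adjusted p = 0.0175, edgeR). The sets are known from the column names alone, and as a block they raised the counts within genotype and diet to 9 of the 10 genes on the control diet and 8 on the high-fat diet, in both genotypes. Calls over all 13088 genes, in either direction, rose too, from 5414 to 5977 (wild type) and 4812 to 5352 (deficient) on the control diet. On the high-fat diet they rose from 4887 to 5437 and from 4107 to 4666. Over all 32 libraries the number of the 10 genes called between the populations stayed at 9 to 10 over 38 alternatives, the tenth being Tcf7l2 under limma, and for no called gene did the direction change. Within genotype and diet it was 6 to 9 for wild type and 6 to 9 for deficient mice on the control diet, and 6 to 8 and 7 to 8 on the high-fat diet. The changed calls were all of Ctnnb1, Lgr4, Znrf3 or Tcf7l2. Without the filter, Znrf3 and Ctnnb1 lost their calls in deficient mice on the control diet (adjusted p = 0.0985 and 0.0796), as they did with only the 8 libraries compared (0.0574 and 0.0885), and Znrf3 also with limma (0.0648); the cause was not tested. For diet and genotype, 0 of the 10 genes were called under every alternative run, and 108 of 1200 estimates, none called, differed in sign from the reported ones. Counts over all genes moved more. For diet in wild-type stem cells edgeR called 31 genes, DESeq2 180 and the block 100, with 2 from only the 8 libraries compared, and 5 to 25 with 1 library left out. For diet in deficient stem cells the count was 8 (0 to 43 over the alternatives), for genotype 55 (25 to 106) on the high-fat and 30 (14 to 60) on the control diet. In progenitors the same 4 counts were 11 (0 to 47), 39 (16 to 118), 88 (35 to 190) and 32 (17 to 83), with the highest value from DESeq2 in each of these 7. With TPM plus 0.1 in place of 1, the Nkd1 difference between populations in log2 TPM went from 2.07 to 2.60. Counts were lowest for Nkd1 (5 to 141 per library), Znrf3 (11 to 109) and Axin2 (13 to 169), which limits the precision of their values.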
